A study of Mus musculus with 8 samples.

Results

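Feedback inhibitors, TCF/LEF factors and secreted antagonists of the Wnt pathway were followed in pancreatic stellate cells (PSCs) exposed to medium from pancreatic cancer organoids. The 10 genes were listed by their symbols, with earlier results of these data known. They were Axin2, Nkd1, Nkd2, Rnf43, Znrf3 and Apcdd1 as inhibitors inside the cell or in its membrane, Lef1 and Tcf7 as transcription factors, and Dkk2 and Dkk3 as secreted Dickkopf proteins. Of these, 8 had a row among the 12160 genes counted, and Nkd1 and Rnf43 were not analysed here. An immortalized mouse PSC line was grown in growth factor reduced Matrigel for 4 days in DMEM with serum and then for 4 days in 1 of 3 media, and 8 domes were sequenced. The media were conditioned by KPC organoids carrying shRNA against Brca2 (shBrca2-CM, 3 domes), conditioned by KPC organoids carrying a non-targeting shRNA (shControl-CM, 3 domes), or a control medium (2 domes). The organoids called KPC derive from murine pancreatic tumors.

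Several features limit what the groups can show. The sample titles name the control DMEM, while the recorded treatment names medium that the PSCs had conditioned themselves, and the group is called control medium here. Per the study's methods, organoid medium was collected in DMEM with less serum than the growth medium. Serum and organoid secretions therefore cannot be told apart in a comparison with control medium. All domes came from 1 PSC line, and because RNA was taken from whole domes, fewer cells of a kind and less RNA per cell cannot be told apart either.

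In canonical Wnt signaling, a Wnt ligand bound to Frizzled and LRP receptors stops the destruction of β-catenin, which then activates genes together with TCF/LEF factors. Several of the genes switched on in this way act back on the pathway: Axin2 rebuilds the destruction complex, Znrf3 removes Frizzled from the cell surface, Nkd2 binds Dishevelled, and Apcdd1 blocks Wnt at the membrane. Dkk2 binds the LRP co-receptors, whereas Dkk3 is a divergent family member whose effect on Wnt signaling varies with the setting. In fibroblasts of many tissues these genes serve as readouts and brakes of the pathway.

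Libraries of the 3′ ends of mRNA held 655996 to 1624392 counts after conditioned medium, and 5476988 and 4623846 counts after control medium. Levels are given in CPM, counts scaled to a common library total by edgeR's TMM method over the 8 libraries, and 3 counts correspond to between 0.521 CPM in the deepest library and 4.34 CPM in the shallowest. Libraries of 1 group had rank correlations of 0.941 to 0.988 over all genes, with the lowest between shControl-CM domes 1 and 3. All 10 fibroblast markers examined (Col1a1, Pdgfrb and Dcn among them) had more than 3 counts in every library. Their summed level was 5253 and 6256 CPM after control medium, 3215 to 3871 CPM after shControl-CM and 2651 to 2777 CPM after shBrca2-CM, so it was lower in all 6 domes given conditioned medium. That sum hid opposite moves: Vim was at 3396 and 4115 CPM with control medium and at 243 to 749 CPM in the other domes, whereas Dcn was at 80.0 and 104.8 CPM with control medium and at 909.7 to 2257 CPM in the others. Of 10 epithelial markers, Krt18, Krt19 and Muc1 had rows and summed to 37.0 and 41.7 CPM, 57.7 to 70.6 CPM and 59.3 to 94.1 CPM in the same order, although Krt19 alone was highest with control medium. Of 8 leukocyte markers, Cd68 and Lyz2 had rows and summed to 7.52 and 9.04 CPM, 16.7 to 22.4 CPM and 13.0 to 23.1 CPM. Among 4 endothelial markers only Kdr had a row, and it reached at most 2 counts in any dome given conditioned medium, against 11 and 14 counts with control medium. The part of these markers in the results below was not tested.

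For each pair of media, all genes with at least 10 counts entered the quasi-likelihood test of edgeR. A gene was called where the Benjamini-Hochberg adjusted p was under 0.1, the log2 fold change exceeded 0.5 in size, and the normalized count averaged more than 5. Against control medium, Axin2, Apcdd1, Dkk2 and Dkk3 fell with both conditioned media, while Nkd2, Znrf3, Lef1 and Tcf7 were not called. With shControl-CM, 4 of the 8 members were called, all lower, where 37.1% of the 12086 genes tested were called, 18.2% higher and 18.9% lower. With shBrca2-CM, 4 of 8 were called, all lower, where 37.8% of 12049 genes were called, 18.6% higher and 19.2% lower. The median log2 fold change of the 8 members was -1.15 with shControl-CM and -0.88 with shBrca2-CM, where all genes tested had medians of -0.10 and -0.05. With shControl-CM, 5 members had groups that did not overlap, 4 of them lower and Tcf7 higher, where 59.9% of all genes did not overlap (26.8% higher, 33.1% lower). With shBrca2-CM, 5 did not overlap, all lower and Lef1 among them, where 57.4% of all genes did not (26.1% higher, 31.3% lower). Both comparisons use the same control medium domes, whose deviations enter each. Between the conditioned media 0 of the 7 members tested were called by edgeR, where 3.13% of 11035 genes were (1.58% higher, 1.55% lower), and DESeq2's likelihood ratio and Wald tests also called 0. An unadjusted p under 0.05 was reached by 3 of the 7 members (Apcdd1, Dkk2 and Dkk3), as by 1477 of the 11035 genes tested, and all 3 had higher estimates with shBrca2-CM.

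**Figure D1:**
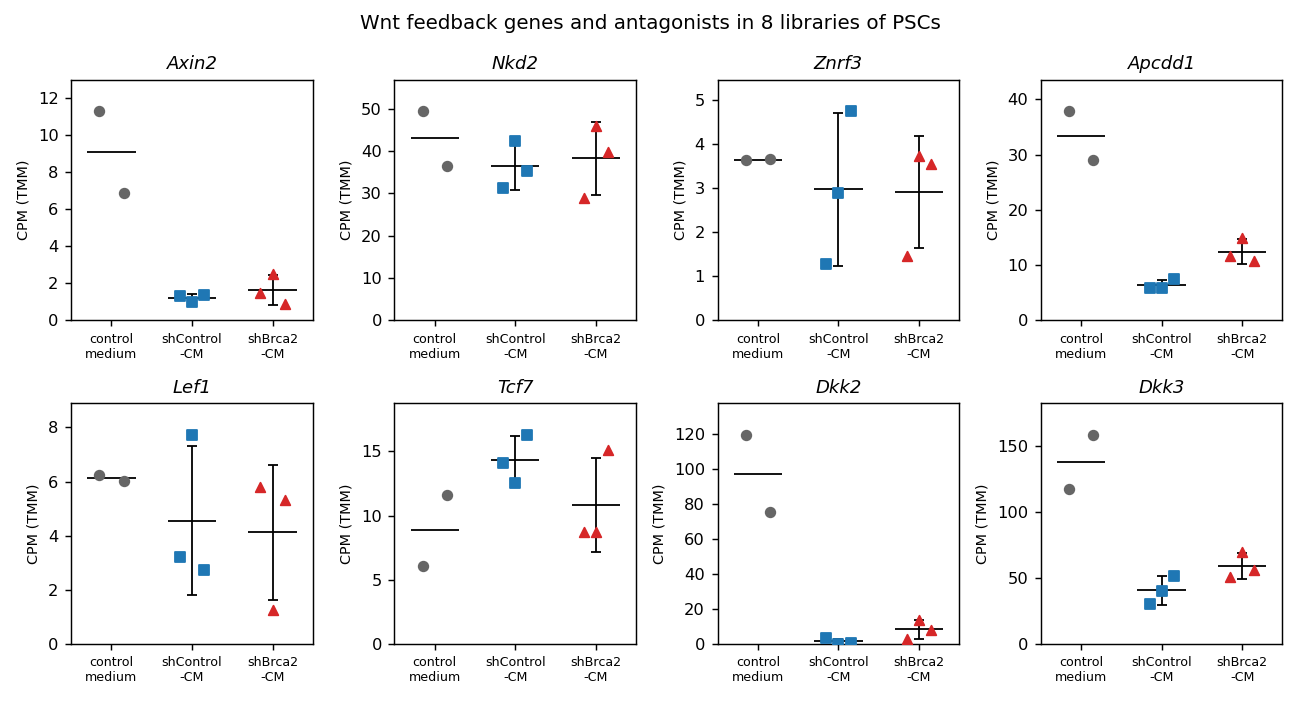
Levels of the 8 measured members in each library (CPM scaled by TMM, y axes from 0), by medium. Points are domes, horizontal lines are means, and bars are the SD where there were 3 domes; Axin2, Apcdd1, Dkk2 and Dkk3 were lower in all 6 domes given conditioned medium than in either control dome.

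Among the inhibitors inside the cell, Axin2 gave the scarcest signal. Axin2 is the scaffold of the β-catenin destruction complex and the most widely used transcriptional readout of canonical Wnt signaling. It was counted 65 and 32 times in the control medium libraries (11.3 and 6.88 CPM), 2, 1 and 2 times with shControl-CM (1.28, 0.966 and 1.36 CPM), and 1, 2 and 1 times with shBrca2-CM (1.45, 2.49 and 0.888 CPM). No library after conditioned medium came within reach of a control library, but every one of them held only 1 or 2 counts. Pooled over domes, the level in control medium was 7.58 times that with shControl-CM (95% exact Poisson interval 3.14 to 23.9) and 6.11 times that with shBrca2-CM (2.31 to 22.9), intervals that cover counting error only. By edgeR, shControl-CM gave a log2 fold change of -2.86 ± 0.54 (SE, adjusted p = 0.00340) relative to control medium, and for shBrca2-CM the value was -2.55 ± 0.60 (SE, adjusted p = 4.04e-04). Both calls were lost when all libraries were thinned to the smallest total (log2 fold changes -1.76 and -1.50, edgeR adjusted p = 0.204 and 0.188). They were also lost without control medium dome 1, where the log2 fold changes were -2.43 and -2.12 and the mean count no longer met the threshold. With 9 counts in all, Axin2 was too scarce to be tested between the conditioned media.

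Axin2 lies at chr11:108917828-108950783 (GRCm38.p6, the patch series of mm10), and Dkk2 lies at chr3:132085266-132180304. Promoter windows from RefSeq, 250 bases before to 50 bases after an annotated start, were scanned on both strands for CTTTGA, the core letters to which TCF/LEF factors bind. This was done for 5 of the 8 measured members (Axin2, Nkd2, Lef1, Tcf7 and Dkk2), and Apcdd1, Znrf3 and Dkk3 were not scanned. Of the 9 windows of the 5 members scanned, 1 held the letters, where 16.0% of all 32851 windows did. The windows of Axin2 (plus strand, chr11:108920099-108920398) and of Dkk2 (plus strand, chr3:132085042-132085341) are shown because these genes fell. The window of a downstream Lef1 start (plus strand, chr3:131156044-131156343) is shown because it alone held the match, in capitals, as TCAAAG on the strand printed, beginning 180 and 120 bases upstream of the start.
Axin2: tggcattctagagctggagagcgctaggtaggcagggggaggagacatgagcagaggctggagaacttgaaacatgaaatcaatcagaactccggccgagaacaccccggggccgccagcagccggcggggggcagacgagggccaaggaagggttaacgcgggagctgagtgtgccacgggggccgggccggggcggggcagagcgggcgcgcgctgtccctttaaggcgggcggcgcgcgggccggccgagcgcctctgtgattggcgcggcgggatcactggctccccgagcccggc
Dkk2: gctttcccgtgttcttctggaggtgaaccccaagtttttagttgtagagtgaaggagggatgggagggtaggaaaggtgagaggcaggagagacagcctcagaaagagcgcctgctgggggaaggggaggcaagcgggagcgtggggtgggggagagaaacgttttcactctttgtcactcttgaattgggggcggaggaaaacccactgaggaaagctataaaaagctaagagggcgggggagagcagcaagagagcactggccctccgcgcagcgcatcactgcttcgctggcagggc
Lef1: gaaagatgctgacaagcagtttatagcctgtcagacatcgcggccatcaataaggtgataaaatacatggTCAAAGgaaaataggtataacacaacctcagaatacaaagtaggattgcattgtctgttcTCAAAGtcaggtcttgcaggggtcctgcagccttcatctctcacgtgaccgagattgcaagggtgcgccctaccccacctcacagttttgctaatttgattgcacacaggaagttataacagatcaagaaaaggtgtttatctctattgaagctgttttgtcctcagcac
The match is a description of the letters and does not mark a bound site. Its absence from the other windows says only that the letters are not in them.

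Nkd2, which binds Dishevelled and dampens its signal (chr13:73818534-73847631), was the feedback inhibitor with the most counts in every conditioned medium library and did not follow Axin2. Its level was 49.5 and 36.5 CPM with control medium, 31.4, 42.5 and 35.3 CPM with shControl-CM, and 28.9, 46.0 and 39.9 CPM with shBrca2-CM. The 3 groups overlapped. The log2 fold change from control medium was -0.26 with shControl-CM (95% interval -0.79 to 0.26) and -0.16 with shBrca2-CM (95% interval -0.58 to 0.27), intervals that leave out a fall as large as those estimated for Axin2. Between the conditioned media it was 0.12 (95% interval -0.39 to 0.63).

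Znrf3, a membrane ubiquitin ligase that clears Frizzled receptors (chr11:5276329-5444847), was near the limit of counting. It had 21 and 17 counts with control medium (3.65 CPM in each), 2, 3 and 7 counts with shControl-CM, and 1, 3 and 4 counts with shBrca2-CM. Its level in the conditioned medium libraries ran from 1.28 to 4.75 CPM and lay on both sides of the control value. The log2 fold changes of -0.31 (95% interval -1.52 to 0.90) and -0.26 (95% interval -1.46 to 0.95) leave out a fall as large as those estimated for Axin2, and changes within them were not detectable at this depth.

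Apcdd1, a membrane glycoprotein that inhibits Wnt signaling at the receptors, had enough reads to be placed in all 3 media. Its level was 37.9 and 29.0 CPM with control medium, from 218 and 135 counts. It was 5.77, 5.80 and 7.47 CPM with shControl-CM (9, 6 and 11 counts) and 11.6, 14.9 and 10.7 CPM with shBrca2-CM (8, 12 and 12 counts). The values of the 3 groups did not overlap, with control medium highest and shControl-CM lowest. By edgeR, shControl-CM gave a log2 fold change of -2.39 ± 0.31 (SE, adjusted p = 3.82e-04) relative to control medium, and for shBrca2-CM the value was -1.45 ± 0.28 (SE, adjusted p = 1.91e-05). Each call held in all 15 alternatives tried. Between the conditioned media Apcdd1 had a log2 fold change of 0.96 (95% interval 0.13 to 1.79), which did not pass adjustment over all genes (edgeR adjusted p = 0.287), and of all genes tested 19.8% had groups that did not overlap, 9.14% with shBrca2-CM higher and 10.6% with it lower.

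The transcription factors were not called in any comparison. Lef1 (chr3:131110297-131224357) and Tcf7 (chr11:52246527-52283383) encode factors that bring β-catenin to DNA, are often induced by it, and are also abundant in T cells, for which Cd3e, Cd3d and Cd2 had no row. Lef1 was at 6.26 and 6.02 CPM with control medium, 3.20, 7.73 and 2.72 CPM with shControl-CM, and 5.79, 1.24 and 5.33 CPM with shBrca2-CM. These rest on 1 to 8 counts per conditioned medium library, and the log2 fold changes of -0.53 (95% interval -1.58 to 0.51) and -0.55 (95% interval -1.54 to 0.45) have room for a fall of the size estimated for Dkk3 with shBrca2-CM. All 3 shBrca2-CM domes lay below both control domes, the highest of them at 5.79 CPM.

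Tcf7 was the only member whose estimates against control medium were positive. It was at 6.08 and 11.6 CPM with control medium, 14.1, 12.6 and 16.3 CPM with shControl-CM, and 8.68, 8.71 and 15.1 CPM with shBrca2-CM. All 3 shControl-CM domes lay above both control domes, as 26.8% of the genes tested did, whereas the shBrca2-CM domes overlapped them. The log2 fold change was 0.71 with shControl-CM (95% interval -0.09 to 1.51, edgeR adjusted p = 0.155) and 0.38 with shBrca2-CM (95% interval -0.35 to 1.12, edgeR adjusted p = 0.432). The control domes differed 1.91-fold from each other, and they decided the shBrca2-CM value: without control dome 2 the gene was called (log2 fold change 0.90, edgeR adjusted p = 0.0840), and without control dome 1 the log2 fold change was -0.03.

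Of the secreted antagonists, Dkk2 had the largest fold changes of the members against control medium, and Dkk3 had the smallest among those called. Dkk2, which binds LRP co-receptors and blocks or, in some settings, weakly mimics Wnt, was counted 688 and 350 times in control medium libraries (119.6 and 75.2 CPM). With shControl-CM it was counted 5, 0 and 1 times (3.20, 0 and 0.679 CPM). With shBrca2-CM it was counted 2, 11 and 9 times (2.89, 13.7 and 7.99 CPM). Every dome given conditioned medium was thus far below both control domes, which themselves differed 1.59-fold.

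Pooled over domes, Dkk2 in control medium was 67.6 times its level with shControl-CM (95% exact Poisson interval 31.0 to 185) and 11.9 times its level with shBrca2-CM (7.81 to 19.0). By edgeR, shControl-CM gave a log2 fold change of -6.02 ± 0.49 (SE, adjusted p = 2.6e-05) relative to control medium, and for shBrca2-CM the value was -3.53 ± 0.28 (SE, adjusted p = 2.12e-16). The shControl-CM value rested on dome 1 of that group, which held 5 of its 6 counts: without it the log2 fold change was -7.80. Without control medium dome 1 the values were -5.63 and -3.15, so the fall did not depend on that dome, in which Dkk2 was higher.

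Between the conditioned media Dkk2 had the largest difference of the members, with a log2 fold change of 2.46 (95% interval 0.73 to 4.19) that did not pass adjustment (edgeR adjusted p = 0.174). The lowest shBrca2-CM dome, at 2.89 CPM, lay below the highest shControl-CM dome, at 3.20 CPM. Without shControl-CM dome 1 the log2 fold change was 4.03 (edgeR adjusted p = 0.0243), but the mean normalized count then fell under the threshold of 5 and no call was made. The other fits gave adjusted p-values of 0.121 to 0.557, and DESeq2 gave none because its own filter on low counts left the gene out.

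Dkk3, a divergent Dickkopf protein secreted by many mesenchymal cells (chr7:112116019-112159482), had the highest mean normalized count of the members in all 3 comparisons. It was at 117 and 158 CPM with control medium (674 and 737 counts), at 30.1, 39.6 and 51.6 CPM with shControl-CM (47, 41 and 76 counts) and at 50.6, 69.7 and 55.9 CPM with shBrca2-CM (35, 56 and 63 counts). By edgeR, shControl-CM gave a log2 fold change of -1.78 ± 0.23 (SE, adjusted p = 4.49e-04) relative to control medium, and for shBrca2-CM the value was -1.22 ± 0.18 (SE, adjusted p = 5.23e-08), and each call held in all 15 alternatives. The conditioned media overlapped through the highest shControl-CM dome, dome 3 at 51.6 CPM, and the lowest shBrca2-CM dome, at 50.6 CPM. Their log2 fold change was 0.57 (95% interval 0.06 to 1.07, edgeR adjusted p = 0.301). Without shControl-CM dome 3 it was 0.79 and Dkk3 was called (edgeR adjusted p = 0.0761), the single call of a member between the conditioned media in any of the fits.

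**Figure D2:**
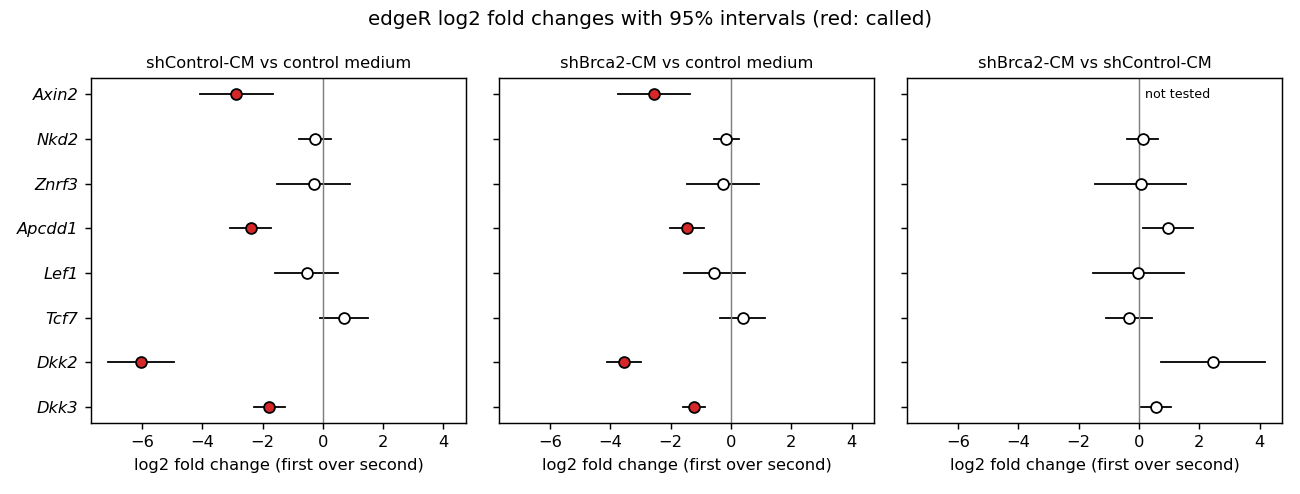
Log2 fold changes of the 8 members in the 3 comparisons, as the first medium over the second (x axis), with bars for 95% intervals from edgeR and red points for called genes. The 4 called members lay between -6.02 and -1.22 against control medium, and none was called between the conditioned media, where Axin2 was not tested.

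The domes of 1 medium did not vary in step. In control medium, dome 1 was higher than dome 2 for Axin2 (1.64-fold), Dkk2 (1.59-fold), Nkd2 (1.36-fold) and Apcdd1 (1.31-fold), while Tcf7 and Dkk3 were 1.91-fold and 1.35-fold higher in dome 2, and Znrf3 and Lef1 were within 1.04-fold. The tests rest on this spread of 2 domes for the control group, and 1 further column headed DMEM, which no sample label matches, was not used. Domes of 1 group are separate cultures of the same line, so p-values measure the spread between cultures.

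Other genes of the pathway were examined from a list ordered by role, of which 72 had a row. Against control medium, 30 of the 72 were called with shControl-CM (8 higher, 22 lower; 41.7%, where 37.1% of all genes were called) and 26 of 72 with shBrca2-CM (8 higher, 18 lower; 36.1%, where 37.8% were), shares near those of all genes by edgeR. More of the 72 were called lower than higher, where all genes had 18.9% lower and 18.2% higher with shControl-CM. With shBrca2-CM all genes had 19.2% lower and 18.6% higher. DESeq2 called fewer with shBrca2-CM, 17 by its likelihood ratio test and 15 by its Wald test, of 3661 and 3531 called over all genes. The shControl-CM count rested on both control domes: without control medium dome 1, 9 of these genes and 1901 of all genes were called, and without dome 2, 13 and 2269. Between the conditioned media 5 of the 62 tested were called, 3 higher and 2 lower with shBrca2-CM (8.06%, where 3.13% of all genes were called), and leaving out 1 dome at a time gave 2 to 7, with 2 called without shBrca2-CM dome 2 or dome 3.

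Many calls of the single pathway genes described next were lost when 1 dome was left out. For Wnt4, Rspo2, Frzb and Bmp4 with shControl-CM, only the mean count fell under its threshold. Their log2 fold changes stayed at -6.67, -6.72, -3.03 and -2.72 or lower. The same held for Frzb with shBrca2-CM, at -3.27 or lower. With shControl-CM, 22 of the named genes were called, and 7 of them (Bcl9l, Ccnd1, Csnk1d, Fosl1, Fzd8, Sfrp2 and Tbx3) kept their call whichever dome was left out. The other 15 lost it without control medium dome 1, and 12 of these also without control medium dome 2. With shBrca2-CM, 10 of 19 kept it (Bcl9l, Ccn5, Ccnd1, Csnk1d, Dvl1, Fzd7, Igfbp4, Sfrp2, Tle1 and Twist1), and Amer1, Bmp4, Frzb, Fzd5, Fzd8, Ptk7, Tle2, Wnt5a and Wnt6 lost it without at least 1 dome. DESeq2's likelihood ratio test did not call Amer1, Csnk1a1, Lgr6 and Porcn with shControl-CM. With shBrca2-CM it did not call Amer1, Bmp4, Fzd5, Fzd8, Ptk7 and Wnt6. A fit with replicate number as a block did not call Amer1 and Porcn with shControl-CM. With shBrca2-CM that fit did not call Bmp4, Fzd8, Ptk7, Tle2 and Wnt6. Between the conditioned media Ccnd1 and Tbx3 kept their calls in all of these fits. Sfrp1, Tle2 and Fosl1 lost theirs without shBrca2-CM dome 2 (edgeR adjusted p = 0.149, 0.125 and 0.169) and without shBrca2-CM dome 3 (edgeR adjusted p = 0.124, 0.20 and 0.163), and Fosl1 also without shControl-CM dome 2 (edgeR adjusted p = 0.111).

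**Figure D3:**
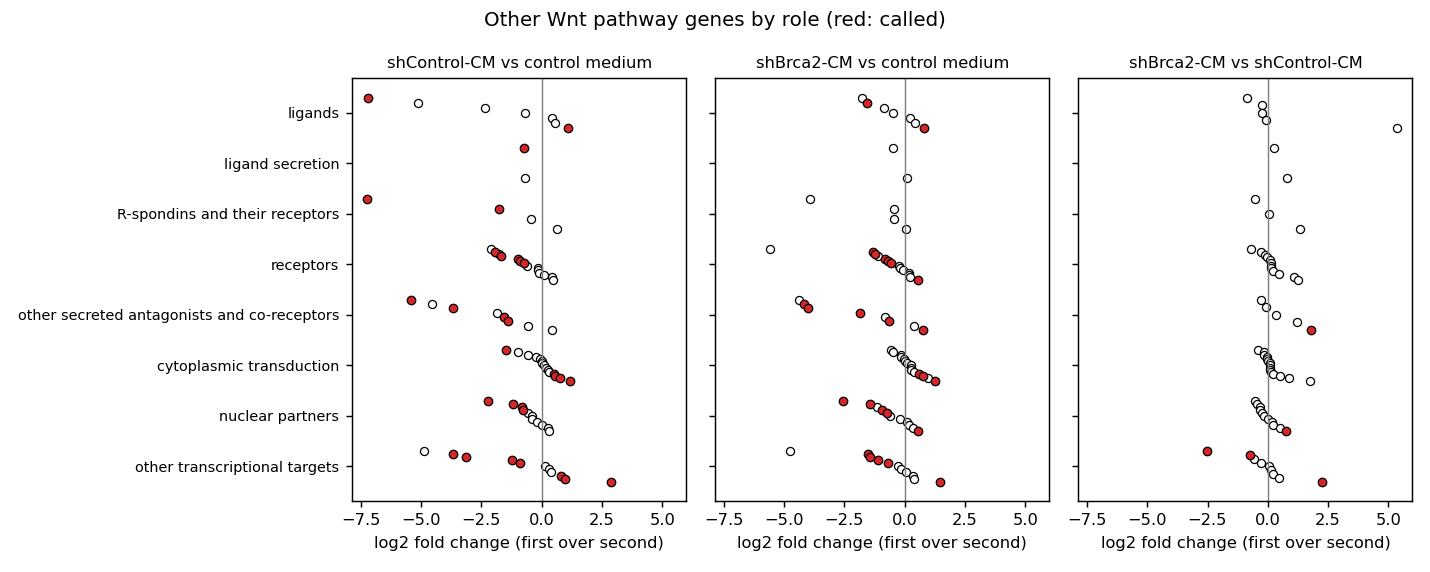
Log2 fold changes of the other Wnt pathway genes by role in the 3 comparisons, as the first medium over the second (x axis), each point a gene and red points called genes. Genes at 0 counts in all libraries of 1 medium, such as Wnt4 and Rspo2 with shControl-CM, have fitted values that are not bounds. Of the 72 genes, 30 were called with shControl-CM and 26 with shBrca2-CM against control medium.

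At the level of ligands, 7 Wnt genes had a row, and Wnt10a, Wnt6 and Wnt5a had the highest levels. Wnt6 rose against control medium (7.65 and 5.59 CPM) to 12.2, 12.6 and 17.7 CPM with shControl-CM (log2 fold change 1.08, edgeR adjusted p = 0.0336) and 10.1, 11.2 and 13.3 CPM with shBrca2-CM (log2 fold change 0.81, edgeR adjusted p = 0.0693). Wnt10a was not called in either. Wnt4 had 39 and 27 counts with control medium, 0 counts in all shControl-CM domes, which places it at least 2.17-fold lower there (against 3 counts in the least deep shControl-CM library after scaling), and 3, 1 and 8 counts with shBrca2-CM. Wnt5a, a ligand best known for signaling without β-catenin, fell with shBrca2-CM (log2 fold change -1.56, edgeR adjusted p = 0.0191). It was at 1.45, 0 and 5.33 CPM there (1, 0 and 6 counts), against 7.13 and 8.81 CPM with control medium (41 counts in each). Leaving out 1 dome moved the log2 fold change to between -3.48 and -1.04. Porcn, the acyltransferase that Wnt proteins need for secretion, fell with shControl-CM (log2 fold change -0.72, edgeR adjusted p = 0.0735), and the Wnt carrier Wls was called in neither.

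Among 4 R-spondin and Lgr genes, whose products shield Frizzled receptors from Znrf3 and Rnf43, the best expressed was Rspo3, at 22.2 and 13.3 CPM with control medium and 8.68 to 17.9 CPM over the conditioned medium libraries, and it was not called. Rspo2 had 39 and 28 counts with control medium and 0 in all shControl-CM domes, at least 2.21-fold lower there, and 1 count in all with shBrca2-CM, where its mean count was under the threshold for a call. Lgr6 fell with shControl-CM (log2 fold change -1.76, edgeR adjusted p = 0.0326), while Lgr4, at 2.65 CPM on average over the 3 media, was not called.

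Of 14 receptor genes, 5 fell and 0 rose with shControl-CM by edgeR (6 had an unadjusted p under 0.05), and 5 fell and 1 rose with shBrca2-CM. These are 35.7% and 42.9% of the receptor genes, near the 37.1% and 37.8% of all genes that were called in either direction. Called lower were 18.9% and 19.2% of all genes. Fzd7 fell with both media (log2 fold changes -1.69 and -1.24, edgeR adjusted p = 0.0182 and 0.00315), as did Fzd8 (-1.92 and -0.67, edgeR adjusted p = 0.00174 and 0.0374). With shControl-CM, Fzd7 was at 10.3, 2.90 and 2.72 CPM, and leaving out 1 dome moved its log2 fold change to between -2.68 and -1.32. Ryk and Fzd1, with the highest receptor levels, were not called in any comparison, and Ptk7 rose with shBrca2-CM (log2 fold change 0.56, edgeR adjusted p = 0.0204), where Fzd5 fell (log2 fold change -1.30, edgeR adjusted p = 0.0801).

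Among the other secreted antagonists, Sfrp2 had the largest called change against control medium with each conditioned medium. Sfrp2, a secreted Frizzled-related protein that binds Wnt ligands, was at 465 and 385 CPM with control medium, 10.9, 10.6 and 8.15 CPM with shControl-CM, and 11.6, 31.1 and 24.9 CPM with shBrca2-CM. It fell against control medium by edgeR with shControl-CM (-5.43 on the log2 scale, adjusted p = 2.44e-07) and with shBrca2-CM (-4.20, adjusted p = 1.17e-26), with a log2 fold change of 1.23 between the conditioned media (edgeR adjusted p = 0.148). Frzb, of the same family, had 40 and 31 counts with control medium and 2 and 1 counts in all with shControl-CM and shBrca2-CM. Pooled over domes, control medium was 13.9 times shControl-CM (95% exact Poisson interval 3.70 to 117) and 17.9 times shBrca2-CM (3.11 to 716). The counts after conditioned medium all came from dome 2 of each group. The log2 fold changes of -3.68 and -4.00 moved to as low as -7.53 and -7.39 when 1 dome was left out.

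Sfrp1 differed between the conditioned media. It was at 76.5 and 54.2 CPM with control medium, 12.8, 29.0 and 34.0 CPM with shControl-CM, and 49.2, 111 and 94.1 CPM with shBrca2-CM. The difference between the conditioned media was called (1.80 ± 0.34 on the log2 scale, SE, edgeR adjusted p = 0.0163), as was the fall with shControl-CM (-1.40, edgeR adjusted p = 0.0101), while the value for shBrca2-CM against control medium was 0.40 (edgeR adjusted p = 0.0910) and under the fold threshold. Igfbp4, which binds IGFs and can also block Frizzled and LRP, had the highest level of these genes and rose with shBrca2-CM (log2 fold change 0.75, edgeR adjusted p = 1.14e-05).

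Inside the cell, 5 of 15 genes of β-catenin handling were called with shControl-CM (4 higher, 1 lower) and 3 with shBrca2-CM (all higher). These shares of 33.3% and 20% were below the 37.1% and 37.8% called over all genes. Ctnnb1, the gene of β-catenin, was at 462 and 477 CPM with control medium, 594, 442 and 317 CPM with shControl-CM, and 443, 474 and 489 CPM with shBrca2-CM, with log2 fold changes of -0.06 and 0.00 that were not called. Csnk1d, Dvl1 and Amer1 rose with both media, by log2 fold changes of 0.53 to 1.26, and Csnk1a1, the kinase that primes β-catenin for destruction, fell with shControl-CM (-1.46, edgeR adjusted p = 0.0511). The shControl-CM domes held 18, 2 and 5 counts of Csnk1a1, and leaving out 1 dome moved its value to between -2.56 and -1.11. Gsk3a was not called. Among 11 nuclear partners, Bcl9l, a β-catenin co-activator, fell with both media (log2 fold changes -2.22 and -2.56, edgeR adjusted p = 1.94e-04 and 4.53e-15), as did the co-repressor Tle1 (-1.18 and -1.44, edgeR adjusted p = 0.0116 and 1.23e-04). Tle5 and Pygo2, at the highest levels along with Tle2, were not called. Tle2, a co-repressor of the same Groucho family, was at 149, 151 and 185 CPM with shBrca2-CM against 84.6, 113 and 98.5 CPM with shControl-CM (log2 fold change 0.75, edgeR adjusted p = 0.0316).

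Other genes known as Wnt targets in some tissues, most of them driven by further pathways too, went different ways. Ccnd1, the gene of cyclin D1, was at 164 and 201 CPM with control medium, 13.5, 18.4 and 12.2 CPM with shControl-CM, and 70.9, 82.1 and 51.5 CPM with shBrca2-CM. The groups did not overlap, and all 3 differences were called: -3.67 with shControl-CM (edgeR adjusted p = 3.3e-06), -1.44 with shBrca2-CM (edgeR adjusted p = 2.98e-10) and 2.25 ± 0.26 (SE) between them (edgeR adjusted p = 7.01e-04).

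Tbx3, a T-box repressor, had the opposite order between the conditioned media, at 28.8, 39.6 and 46.2 CPM with shControl-CM, 8.68, 4.98 and 6.21 CPM with shBrca2-CM, and 4.17 and 6.23 CPM with control medium (-2.50 on the log2 scale for shBrca2-CM over shControl-CM, edgeR adjusted p = 0.00189). Fosl1, a subunit of AP-1, was also lower with shBrca2-CM than with shControl-CM (log2 fold change -0.73, edgeR adjusted p = 0.0235). Bmp4 fell with both media by edgeR (log2 fold changes -3.12 and -1.52, edgeR adjusted p = 0.00607 and 0.0334). It was at 5.91 and 7.52 CPM with control medium (34 and 35 counts) and at 1.28, 0 and 0.679 CPM with shControl-CM. With shBrca2-CM it was at 0, 4.98 and 1.78 CPM, from at most 4 counts. That call was lost with DESeq2's likelihood ratio test and with the replicate block. Twist1 fell with both media as well (-0.90 and -0.71, edgeR adjusted p = 0.0334 and 2.92e-04), whereas Ccn5, a matricellular protein, rose with both (0.96 and 1.45, edgeR adjusted p = 0.0281 and 6.92e-06).

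**Figure D4:**
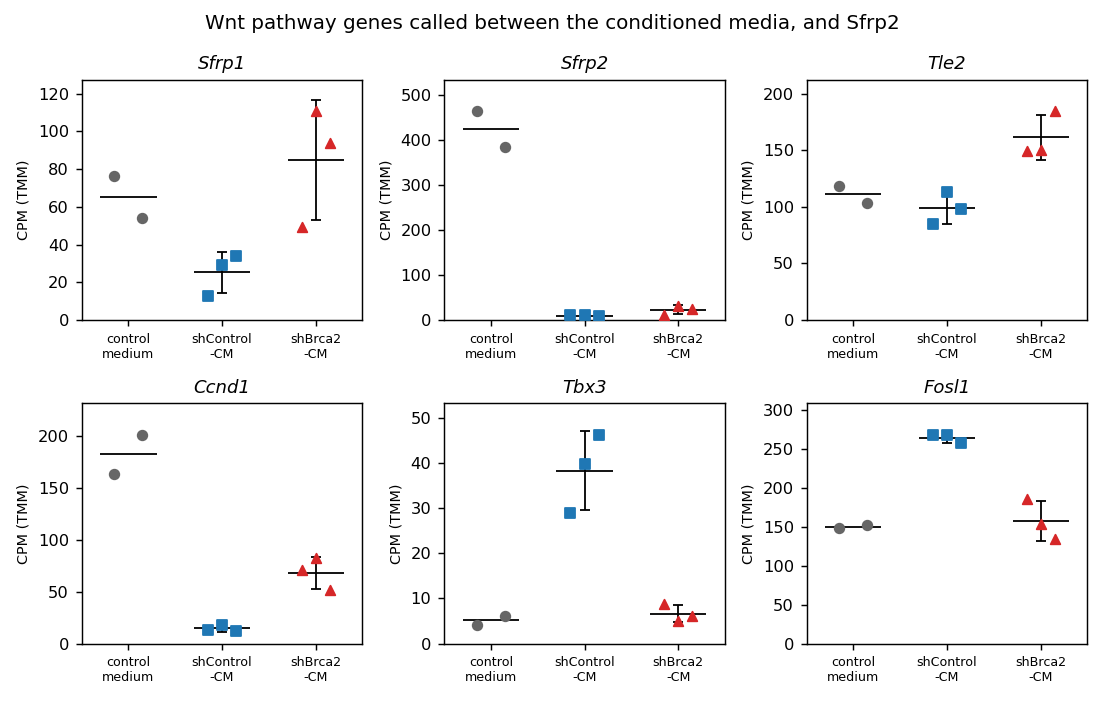
Levels of Sfrp1, Sfrp2, Tle2, Ccnd1, Tbx3 and Fosl1 in each library (CPM scaled by TMM, y axes from 0), with domes as points, means as lines and the SD as bars where there were 3 domes. Sfrp1, Tle2 and Ccnd1 were higher in all 3 shBrca2-CM domes than in any shControl-CM dome, and Tbx3 and Fosl1 were lower.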

How the data were processed

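RNA of PSCs in 8 domes was measured by MARS-seq, which counts the 3′ ends of mRNA, on an Illumina NextSeq instrument. The table deposited by the authors holds whole-number counts for each gene and dome, without normalization, and the submitters' processing notes name bcl2fastq, cutadapt, STAR 2.4.2a, HTSeq, DESeq2 and the genome build mm10. The annotation, the filter on genes and the treatment of molecular identifiers are not given in the sources used here. The table also has 1 further column headed DMEM, like the control columns. It could not be tied to a labelled sample and was set aside, so the control group has 2 domes here. The conditioned medium libraries were shallower than the control libraries, so low counts limit genes such as Axin2 most there. Intervals from pooled counts cover counting error only.

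Counts were analysed in R 4.3.3 with edgeR 4.0.16 (TMM, genes with at least 10 counts over the domes of the pair, glmQLFit and glmQLFTest on that pair alone). Standard errors are the fold change over the root of its F statistic. Simulated counts in which 200 genes differed by 2 on the log2 scale served as a check: edgeR recovered 197 of them between the conditioned media with 15 false calls (10849 genes), 190 with 15 for shControl-CM against control medium (12004) and 200 with 10 for shBrca2-CM against control medium (11946). The changed genes were drawn from well-counted genes only, with a spread between domes set by the trend over all genes. The check therefore does not cover scarce members such as Axin2.

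Genes named were all members, and in each role group of the pathway list the 3 with the highest level and at most 2 with the largest called change per comparison. The members and lists were chosen with earlier results of these data known. Alternatives were DESeq2 1.42.0, other scalings and filters, all groups in 1 fit, a replicate block, thinned libraries, stricter thresholds and each dome left out. Replicate numbers carry no stated meaning.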

Additional observations from a re-analysis of the deposited data

How the results depend on the processing

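The 4 members called lower against control medium kept their direction in every alternative; Apcdd1, Dkk2 and Dkk3 kept their calls in all of them with both media, and Axin2 lost its call in thinned libraries and without control medium dome 1, while with shBrca2-CM it was not tested under edgeR's own filter on low counts. Over the fits that each left out 1 dome, members called ranged from 3 to 4 with shControl-CM, 3 to 5 with shBrca2-CM and 0 to 1 between the conditioned media (1 without shControl-CM dome 3), other pathway genes from 9 to 31, 18 to 24 and 2 to 7, and all genes from 1901 to 5157, 3903 to 4510 and 128 to 976, with the 976 reached without shControl-CM dome 1 and the 1901 without control medium dome 1. Without control medium dome 2, 2269 genes were called with shControl-CM, and between the conditioned media 175, 128 and 160 were called without shBrca2-CM domes 1, 2 and 3 and 169 without shControl-CM dome 2. An adjusted p under 0.05 with a log2 fold change over 1 left 2375, 2185 and 130 of all genes and 16, 12 and 3 of the other pathway genes. Thinned libraries left 2956 of all genes and 18 other pathway genes with shControl-CM, fewer genes being tested at that depth. For shBrca2-CM against control medium, other pathway genes called numbered 17 with DESeq2's likelihood ratio test, 15 with its Wald test and 17 with the replicate block, in place of 26; the cause was not tested. Total counts in place of TMM moved the median log2 fold change of all genes between the conditioned media from 0.03 to 0.14, and their calls from 174 higher and 171 lower to 250 and 120. For shControl-CM against control medium the median moved from -0.10 to -0.21. Same-numbered domes had correlations of deviations of -0.05, 0.02 and 0.15 between the conditioned media. Those of differently numbered domes ran from -0.204 to 0.213. These values cannot show whether same-numbered domes share more than a number. With the replicate block 4, 4 and 0 members were called, and other pathway genes numbered 26, 17 and 6, where 4512, 3850 and 311 of all genes were called. Trying the named pathway genes with each dome left out, with DESeq2's likelihood ratio test and with the replicate block was chosen after seeing the data. No called gene changed direction in these fits, though several lost their calls in them. Depth limits Axin2, Znrf3 and Lef1, each with at most 8 counts per conditioned medium library.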
